A study of Arabidopsis thaliana with 9 samples.

Results

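Expansins are secreted proteins of the plant cell wall that loosen the contacts between cellulose and other wall polymers without cutting them, which lets a wall under turgor extend. Alpha-expansins (EXPA) act best in an acidified wall, beta-expansins (EXPB) form a second branch, and expansin-like proteins (EXLA, EXLB) are related by sequence but have no established wall-loosening activity. In leaves, expansins are known from the growth of young blades and petioles and from the opening of stomata. Transcripts of 10 expansin genes were followed here, 9 of them alpha-expansins and 1 expansin-like, chosen by name out of 33323 genes in the count table: EXPA1 (AT1G69530), EXPA3 (AT2G37640), EXPA4 (AT2G39700), EXPA5 (AT3G29030), EXPA6 (AT2G28950), EXPA8 (AT2G40610), EXPA10 (AT1G26770), EXPA11 (AT1G20190), EXPA15 (AT2G03090) and EXLA2 (AT4G38400). The choice was made with earlier results of these data known. The other 26 genes of the family were read beside these 10.

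RNA was sequenced from whole leaves 12 to 14 of Arabidopsis thaliana plants that were 49 days old, kept under long days of 20 h light and 4 h dark with dim light of 28 µmol photons m-2 s-1 and no treatment. The groups were wild type Col-0 (WT), hac1-1 (insertion line SALK_080380) and hac1-2 (SALK_136314), the latter pair in the Col-0 background with an insertion in HAC1, and each group had 3 libraries. HAC1 encodes a histone acetyltransferase, and the stated aim was to find its potential targets. The labels call WT leaves senescent and the leaves of both mutants non-senescent, so genotype and senescence state cannot be told apart in any comparison with WT.

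Library totals ran from 5750097 to 9461600 counts, so that 3 counts, taken as the limit that a count of 0 allows, corresponded to 0.318 to 0.52 CPM (the count scaled to a common library size), for counting error only. The design text names 1 biological replicate, so p-values reflect only how much these libraries varied, and that variation may be technical. HAC1 itself stood at 153, 167 and 147 CPM in WT, at 58.6, 72.7 and 64.1 CPM in hac1-1 and at 151, 133 and 122 CPM in hac1-2. Its log2 fold change was -1.26 in hac1-1 (edgeR adjusted p = 1.22e-08) and -0.20 in hac1-2 (edgeR adjusted p = 0.311). The hac1-2 group therefore rests on its labels. In whole leaves, fewer cells of a type and less RNA per cell cannot be told apart.

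The promoters of the 4 expansin genes with enough counts to be tested are shown because every call among the 10 genes falls on them. Each runs from 250 bases before to 50 bases after the annotated start, 5′ to 3′ on the strand of the gene, in the TAIR10.1 reference. EXPA1 lies at chr1:26141476-26141775 on the plus strand. The others lie on the minus strand, EXPA4 at chr2:16545697-16545996, EXPA6 at chr2:12433747-12434046 and EXPA11 at chr1:6999790-7000089. Capitals mark, on either strand, the G-box CACGTG, the brassinosteroid element CGTGCG or CGTGTG, the auxin element TGTCTC, the abscisic acid core ACGTG (contained in the G-box) and the TATA element TATAAA.
EXPA1: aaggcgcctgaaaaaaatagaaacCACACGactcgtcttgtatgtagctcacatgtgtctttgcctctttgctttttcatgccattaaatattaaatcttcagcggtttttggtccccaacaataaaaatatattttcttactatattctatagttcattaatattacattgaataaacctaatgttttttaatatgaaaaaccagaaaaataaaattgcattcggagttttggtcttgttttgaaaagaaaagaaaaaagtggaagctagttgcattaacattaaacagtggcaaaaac
EXPA4: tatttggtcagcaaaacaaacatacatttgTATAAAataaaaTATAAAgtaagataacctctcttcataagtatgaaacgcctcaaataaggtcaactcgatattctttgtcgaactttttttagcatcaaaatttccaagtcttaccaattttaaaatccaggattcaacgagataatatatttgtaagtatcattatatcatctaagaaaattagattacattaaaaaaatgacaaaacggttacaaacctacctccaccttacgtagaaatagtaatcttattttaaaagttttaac
EXPA6: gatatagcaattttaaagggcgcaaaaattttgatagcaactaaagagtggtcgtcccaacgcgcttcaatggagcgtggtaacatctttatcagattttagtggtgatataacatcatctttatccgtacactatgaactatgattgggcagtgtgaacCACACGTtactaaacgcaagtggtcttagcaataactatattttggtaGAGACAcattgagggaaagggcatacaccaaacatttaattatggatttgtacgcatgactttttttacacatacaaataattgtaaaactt
EXPA11: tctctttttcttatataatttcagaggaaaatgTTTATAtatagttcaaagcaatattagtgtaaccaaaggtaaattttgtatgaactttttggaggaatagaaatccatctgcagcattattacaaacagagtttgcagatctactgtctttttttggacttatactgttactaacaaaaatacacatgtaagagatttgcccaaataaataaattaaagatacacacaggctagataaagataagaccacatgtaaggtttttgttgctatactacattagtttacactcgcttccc

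The capitals in EXPA1 are CACACG, the brassinosteroid element read on the other strand. In EXPA6 the same 6 letters overlap the abscisic acid core in CACACGT, and GAGACA is the auxin element on the other strand. EXPA4 held the TATA element in 2 places and EXPA11 in 1, as TTTATA on the other strand, and neither promoter held any of the other elements. Over all 10 genes, the brassinosteroid element was found in 3 promoters (30.0%), against 7.71% of the 32834 promoters of genes in the count table. The auxin element was found in 4 promoters (40.0%), against 14.04% of all. The abscisic acid core was in 3 (30.0%, against 25.36%), the TATA element in 6 (60.0%, against 50.05%) and the G-box in 0 (against 6.9%). Among the 26 other family genes, 19.23% held the brassinosteroid element, 7.69% the auxin element and 26.92% the abscisic acid core. The TATA element was in 53.85% of them and the G-box in 3.85%. All of these are matches of letters in a fixed window and say nothing on whether a factor binds there.

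Each gene is a single locus with several exons that overlaps no other annotated gene. EXPA1 spans 26141726 to 26143538 on chromosome 1 and EXPA11 spans 6998335 to 6999839 on the same chromosome. EXPA4 spans 16543832 to 16545746 and EXPA6 spans 12431338 to 12433796, both on chromosome 2. None of the 10 had a counted copy elsewhere that matched 50% or more of its exons at 95% identity or above. The closest long match was between EXLA2 and its relative EXLA1, with 84.7% identity over 34.0% of the EXLA2 exons.

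Expansin transcripts were scarce in these leaves and 4 genes carried most of them. The 10 genes took 1778 counts over all 9 libraries. EXPA11 held 542 of them (30.5%), EXPA6 held 390 (21.9%), EXPA1 held 379 (21.3%) and EXPA4 held 308 (17.3%). Together these 4 held 91.1%. They were the ones that passed the filter on low counts (about 1.4 CPM in enough libraries), and EXPA1, EXPA6 and EXPA11 reached that level in all 9 libraries, whereas EXPA4 missed it in 1 hac1-1 library. Even these stood low among the 16560 tested genes, whose median was 15.7 CPM: 33.3% of tested genes had a lower mean CPM than EXPA11, 25.8% a lower one than EXPA6, 25.2% a lower one than EXPA1 and 21.2% a lower one than EXPA4.

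**Figure D1:**
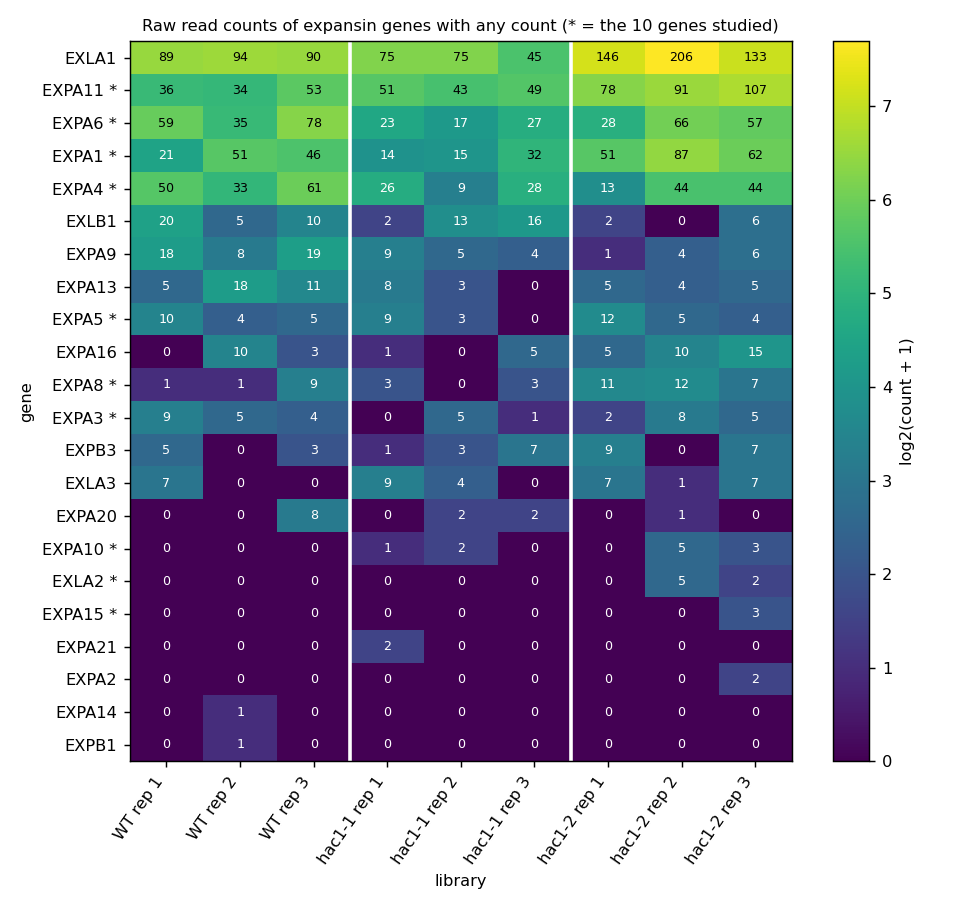
Raw read counts in each library (columns, by group and replicate) of the 22 expansin genes with any count (rows, an asterisk marks the 10 genes followed), coloured by log2(count + 1). Counts sit in EXLA1, EXPA11, EXPA6, EXPA1 and EXPA4, while EXPA15 had 3 counts in 1 hac1-2 library and none elsewhere.

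Per length, the order of the genes differed between the groups. In deposited FPKM (counts scaled to gene length and library size), WT leaves held EXPA6 at 5.56 ± 1.15, EXPA11 at 4.95 ± 0.587, EXPA4 at 4.88 ± 0.585 and EXPA1 at 4.04 ± 2.10 (SD, n = 3), and these 4 means lie within the spread of their libraries. EXPA3 (0.706 FPKM), EXPA5 (0.680 FPKM) and EXPA8 (0.410 FPKM) followed, none of them above 1.06 FPKM in any WT library, whereas the lowest value of the upper 4 was 2.04 FPKM.

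In hac1-1, EXPA11 stood at 6.42 ± 0.943 FPKM, and its lowest library (5.68 FPKM) lay above the highest of EXPA6, EXPA4 and EXPA1 (3.39, 3.64 and 3.98 FPKM). The means of those 3 genes, 2.50, 2.43 and 2.32 FPKM, did not differ beyond their spread. In hac1-2, EXPA11 stood highest again at 10.4 ± 2.48 FPKM, followed by EXPA1 at 5.97 ± 0.764, EXPA6 at 4.55 ± 1.53 and EXPA4 at 3.15 ± 1.65 FPKM. EXPA1 and EXPA4 did not overlap there, while EXPA6 overlapped both. EXPA10, EXPA15 and EXLA2 are not in the FPKM table. The labels do not say whether reads cover whole transcripts or their 3′ ends, on which a level per length depends.

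**Figure D2:**
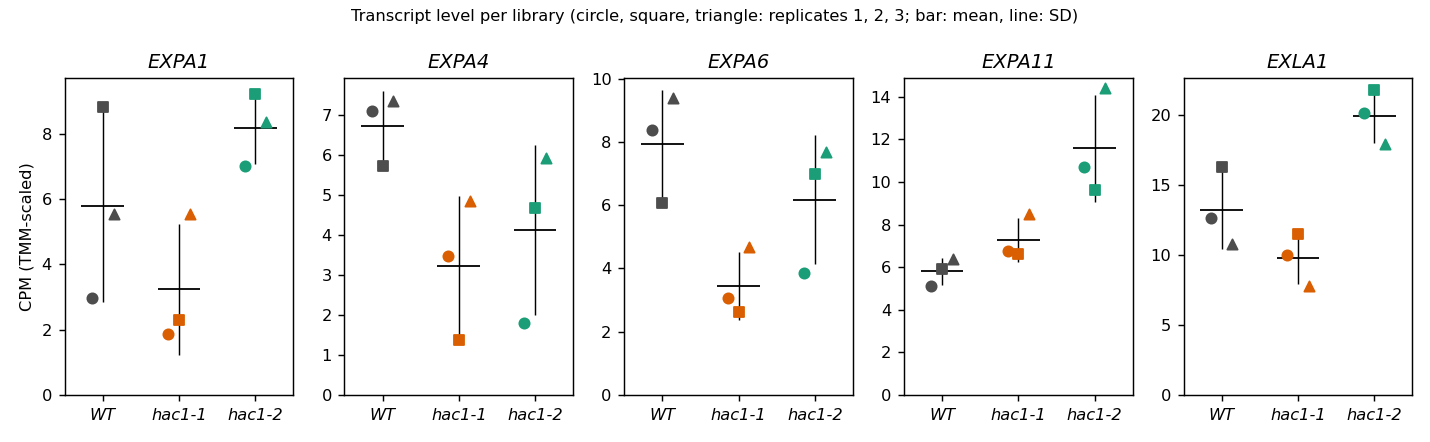
CPM scaled by TMM (y axis) in each library of WT, hac1-1 and hac1-2 (x axis) for the 4 tested genes of the 10 and for EXLA1. Horizontal bars are means and vertical lines are SD of 3 libraries. All 3 hac1-1 libraries lie under all 3 WT libraries for EXPA6 and EXPA4, and all 3 hac1-2 libraries lie above all 3 WT libraries for EXPA11.

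EXPA6 was lower in hac1-1 than in WT. This alpha-expansin stood at 8.37, 6.07 and 9.39 CPM in WT, at 3.06, 2.61 and 4.67 CPM in hac1-1 and at 3.85, 6.99 and 7.67 CPM in hac1-2. The highest hac1-1 library lay below the lowest WT library, whereas the hac1-2 libraries overlapped both groups. In hac1-1, EXPA6 fell 2.34-fold, a log2 fold change of -1.23 (SE 0.33, edgeR adjusted p = 0.0122). Without WT replicate 3 the log2 fold change was -1.08 and the call was lost (edgeR adjusted p = 0.0736). In hac1-2 it was not called, with a log2 fold change of -0.37 (SE 0.30, edgeR adjusted p = 0.537), and the 95% interval of the ratio to WT, 0.502 to 1.20, includes no difference. The mutants, compared directly, differed by a log2 value of 0.86 (SE 0.33; edgeR adjusted p = 0.195).

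EXPA6 was the only gene of the 10 called in hac1-1. There, 12.6% of all tested genes were called, 9.12% lower and 3.51% higher. With 4 genes tested, 1 call is not read as a property of the set. The median log2 fold change of the 4 was -0.96, beside 0.02 for all tested genes, with 3 below 0 and 1 above. Groups did not overlap for EXPA4, EXPA6 and EXPA11, against 27.6% of all tested genes. An unadjusted p under 0.05 was found for EXPA1, EXPA4 and EXPA6, against 24.7% of all tested genes.

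EXPA4 values were low in hac1-1 too, but did not pass the test. Its levels were 7.09, 5.72 and 7.35 CPM in WT, as against 3.46, 1.38 and 4.85 CPM in hac1-1 and 1.79, 4.66 and 5.92 CPM in hac1-2. The hac1-1 libraries all lay below WT, and the hac1-2 libraries reached into the WT range with replicate 3. For hac1-1 against WT its log2 fold change came to -1.07 (SE 0.40, edgeR adjusted p = 0.083). It was called with no filter (-1.07, edgeR adjusted p = 0.0279) and without hac1-1 replicate 3 (-1.45, edgeR adjusted p = 0.0417). In hac1-2 it was -0.70 (SE 0.38, edgeR adjusted p = 0.296), with a 95% interval of the ratio to WT from 0.356 to 1.06. Between the mutants it was 0.37 (SE 0.41, edgeR adjusted p = 0.757).

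EXPA11 was higher in hac1-2 than in WT. This alpha-expansin stood at 5.11, 5.90 and 6.38 CPM in WT, at 6.78, 6.60 and 8.48 CPM in hac1-1 and at 10.7, 9.64 and 14.4 CPM in hac1-2. The 3 groups did not overlap, with WT lowest and hac1-2 highest. In hac1-2, EXPA11 rose 1.99-fold, a log2 fold change of 0.99 (SE 0.25, edgeR adjusted p = 0.00849). Without hac1-2 replicate 3, its highest library, the log2 fold change was 0.81 and the call was lost (edgeR adjusted p = 0.0841). For hac1-1 against WT it came to 0.32 (SE 0.26, edgeR adjusted p = 0.491) with a 95% interval of the ratio to WT from 0.861 to 1.81. The step from hac1-1 to hac1-2 was 0.67 (SE 0.25, edgeR adjusted p = 0.162), so the mutants were not shown to differ.

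EXPA11 was the only gene of the 10 called in hac1-2. Of all tested genes, 10.3% were called there, 2.85% higher and 7.44% lower. The median log2 fold change of the 4 tested genes was 0.08, beside 0.02 for all tested genes, with 2 above 0 and 2 below. EXPA11 was also the only one whose groups did not overlap (28.0% of all tested genes) and the only one with an unadjusted p under 0.05 (22.2% of all tested genes).

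EXPA1 differed between the mutants. This alpha-expansin is known from guard cells, where it takes part in stomatal opening, and from petioles. It stood at 2.98, 8.84 and 5.54 CPM in WT, at 1.86, 2.30 and 5.54 CPM in hac1-1 and at 7.02, 9.21 and 8.35 CPM in hac1-2. WT libraries were spread widely and overlapped both mutants, while every hac1-2 library lay above every hac1-1 library. EXPA1 was 2.60-fold higher in hac1-2 than in hac1-1, a log2 difference of 1.38 (SE 0.38, edgeR adjusted p = 0.0464). This call was lost in 9 of 18 alternatives, while the log2 difference stayed between 1.08 and 1.98. The adjusted p was 0.107 to 0.115 with limma on FPKM, and with edgeR 0.0557 without WT replicate 3, 0.174 and 0.115 without hac1-1 replicate 1 or 2, and 0.0678, 0.17 and 0.14 without hac1-2 replicate 1, 2 or 3.

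Against WT, EXPA1 was called in neither mutant. Its log2 value was -0.85 in hac1-1 (SE 0.40, edgeR adjusted p = 0.177) and 0.52 in hac1-2 (SE 0.35, edgeR adjusted p = 0.422). In hac1-1, replicate 3 stood highest, and without it EXPA1 was called lower (-1.45, edgeR adjusted p = 0.0272). The 95% intervals of the ratio to WT were 0.315 to 0.972 in hac1-1, which is not adjusted over genes, and 0.868 to 2.38 in hac1-2.

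EXPA1 was the only gene of the 10 called between the mutants, where 2.84% of all tested genes were called, 1.86% higher in hac1-2 and 0.978% lower. All 4 tested genes had a log2 difference above 0, with a median of 0.76, beside -0.01 for all tested genes. Groups did not overlap for EXPA1 and EXPA11, against 18.2% of all tested genes, and an unadjusted p under 0.05 was found for EXPA1, EXPA6 and EXPA11, against 14.3%. The comparisons with WT share the WT libraries, and that between the mutants shares a mutant group with each of them.

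**Figure D3:**
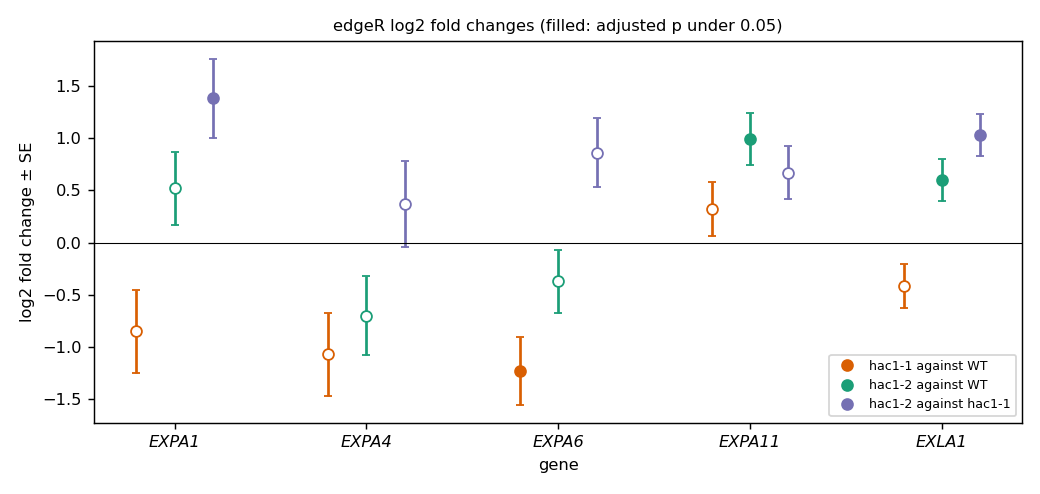
Log2 fold change from edgeR (y axis, with SE as bars) of the 4 tested genes and EXLA1 (x axis) in hac1-1 against WT, hac1-2 against WT and hac1-2 against hac1-1. Filled points have an adjusted p under 0.05: EXPA6 at -1.23, EXPA11 at 0.99, EXPA1 at 1.38 and EXLA1 at 0.60 and 1.03.

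Summed over the 10 genes, the level ranged from 26.4 to 30.8 CPM in WT, from 14.4 to 24.2 CPM in hac1-1 and from 26.8 to 39.6 CPM in hac1-2. The sum in hac1-1 lay below that in both other groups, and hac1-2 overlapped WT. By mean CPM, which is not scaled to gene length, the largest parts of the WT sum were EXPA6 (7.94 ± 1.70 CPM) and EXPA4 (6.72 ± 0.874 CPM). Their WT libraries overlapped those of EXPA11 and EXPA1, so no order is read from them. In hac1-2 the largest parts were EXPA11 (11.6 ± 2.50 CPM) and EXPA1 (8.19 ± 1.11 CPM; SD, n = 3). There EXPA11 lay above the other genes in all libraries, and EXPA1 overlapped EXPA6.

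The remaining 6 genes had too few counts to be tested. EXPA8, an alpha-expansin, had 1, 1 and 9 counts in WT, 3, 0 and 3 in hac1-1 and 11, 12 and 7 in hac1-2. In CPM its hac1-2 libraries (0.942 to 1.51 CPM) all lay above its hac1-1 libraries (0 to 0.519 CPM) and overlapped WT. Between the mutants, groups did not overlap for 18.2% of all tested genes. Fitted with no filter, EXPA8 had a log2 difference of 1.98 between the mutants (SE 0.99; edgeR adjusted p = 0.393). EXPA3, another alpha-expansin, had 9, 5 and 4 counts in WT, 0, 5 and 1 in hac1-1 and 2, 8 and 5 in hac1-2. EXPA5, which is known from growth promoted by brassinosteroids, had 10, 4 and 5 counts in WT, 9, 3 and 0 in hac1-1 and 12, 5 and 4 in hac1-2. The groups overlapped for both.

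EXPA10, EXPA15 and EXLA2 were at or near 0. EXPA10, known from the growth of leaves and pedicels, had 0 counts in WT, 1, 2 and 0 in hac1-1 and 0, 5 and 3 in hac1-2. The alpha-expansin EXPA15 had counts in hac1-2 replicate 3 alone, where there were 3. EXLA2, an expansin-like gene known from responses to fungal infection, had 5 and 2 counts in hac1-2 replicates 2 and 3 and 0 in the other libraries. A count of 0 in 1 of these libraries allows up to 0.318 to 0.52 CPM, so a difference of these genes could be missed at this depth. With no filter, none of the 6 was called in any comparison.

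Of the other 26 family genes, 12 had any count and 2 were tested. The 14 at 0 in every library included EXPA7 and EXPA18, which are known from root hairs. They also included EXPA23, EXPA25 and EXPA26, neighbours on chromosome 5 that have near-identical copies, where reads could be split or dropped by counting that is not described. EXPA9, an alpha-expansin, had 18, 8 and 19 counts in WT, 9, 5 and 4 in hac1-1 and 1, 4 and 6 in hac1-2, and missed the filter. Both mutant groups lay below WT in CPM. Groups did not overlap for 27.6% of all tested genes in hac1-1 against WT and for 28.0% in hac1-2 against WT. With no filter the log2 fold change of EXPA9 was -2.15 in hac1-2 (SE 0.75, edgeR adjusted p = 0.0514) and -1.21 in hac1-1 (SE 0.71, edgeR adjusted p = 0.343). EXPA9 was singled out after its values were seen.

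The most abundant family gene was the expansin-like gene EXLA1 (AT3G45970), which is not one of the 10. It stood at 12.6, 16.3 and 10.8 CPM in WT, at 9.97, 11.5 and 7.79 CPM in hac1-1 and at 20.1, 21.8 and 17.9 CPM in hac1-2. All hac1-2 libraries lay above those of the other groups. EXLA1 was 2.04-fold higher in hac1-2 than in hac1-1 (log2 difference 1.03, SE 0.20, edgeR adjusted p = 0.0045), a call kept in all 18 alternatives, with adjusted p of at most 0.0349. Against WT it rose 1.52-fold in hac1-2 (0.60, SE 0.20, edgeR adjusted p = 0.0498), a call lost in 7 of 18 alternatives, with adjusted p up to 0.237. That call was lost without WT replicate 1 or 3 (edgeR adjusted p = 0.15 and 0.237) and without hac1-2 replicate 1, 2 or 3 (0.114, 0.189 and 0.0679). With all libraries it was also lost with the DESeq2 Wald test and with DESeq2 size factors in edgeR. For hac1-1 against WT the log2 fold change of EXLA1 came to -0.42 (SE 0.21, edgeR adjusted p = 0.214). EXLA1 overlaps AT3G45980 on the opposite strand, and the strand used in counting is not given in the sources used here, so reads of the overlapping gene may be included.

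The other tested family gene, the expansin-like EXLB1 (AT4G17030), was at 2.84, 0.867 and 1.20 CPM in WT, at 0.266, 1.99 and 2.77 CPM in hac1-1 and at 0.275, 0 and 0.808 CPM in hac1-2. WT and hac1-1 overlapped, and all hac1-2 libraries lay below WT. EXLB1 reached the 1.4 CPM of the filter in 1 WT, 2 hac1-1 and 0 hac1-2 libraries, so it was tested only through the groups in which it was higher. Its log2 value in hac1-2 was -2.23 against WT (SE 0.86, edgeR adjusted p = 0.107). Over all 36 family genes the summed level was 46.8 to 52.0 CPM in WT, 30.5 to 37.9 CPM in hac1-1 and 50.9 to 63.9 CPM in hac1-2. As for the 10 genes, hac1-1 lay below both other groups and hac1-2 overlapped WT. The 10 genes are part of this sum, so the likeness is in part built in and adds no support.

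Genes that act with expansins in wall extension were read from lists. Plasma membrane proton pumps (AHA) acidify the wall. Of 11 pump genes 8 were tested, and 2 were called lower in each mutant, AHA3 and AHA8, while none was called higher. Over all tested genes, 9.12% were called lower in hac1-1 and 7.44% in hac1-2. The WT level of AHA3 was 539 ± 45.3 CPM, against 363 ± 56.9 CPM for hac1-1 and 373 ± 58.9 CPM for hac1-2 (SD, n = 3). AHA3 fell by 0.57 on the log2 scale in hac1-1 (edgeR adjusted p = 0.00203) and by 0.53 in hac1-2 (edgeR adjusted p = 0.00482). AHA8, at 29.1 CPM in WT, fell by 0.74 in hac1-1 (edgeR adjusted p = 0.00603) and by 0.65 in hac1-2 (edgeR adjusted p = 0.0178). The other tested pumps were called in neither mutant. Among them, AHA1 stood at means of 475 CPM in WT, 461 CPM in hac1-1 and 488 CPM in hac1-2 (log2 -0.04 and 0.04). AHA2, at 64.6 CPM in WT, had log2 fold changes of -0.30 in hac1-1 (edgeR adjusted p = 0.094) and 0.10 in hac1-2 (edgeR adjusted p = 0.691). The median log2 fold change of the 8 was -0.23 in hac1-1 and 0.03 in hac1-2, beside 0.02 for all tested genes in each. Without hac1-2 replicate 2, AHA3 was not called in hac1-2, nor was AHA8 without WT replicate 1 (in either mutant) or without any 1 of the hac1-2 libraries. With limma on FPKM, neither was called in hac1-2 (adjusted p of 0.0785 to 0.0843 for AHA3 and 0.113 to 0.121 for AHA8).

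Cellulose synthases (CESA) build the microfibrils that expansins act on. Of 9 genes 5 were tested, all of the primary wall, and none was called in hac1-1. CESA3 alone was called in hac1-2, where 2.85% of all tested genes were higher (log2 fold change 0.37, edgeR adjusted p = 0.0311; 87.7 ± 7.89 CPM in WT and 114 ± 9.69 CPM in hac1-2). Without WT replicate 2 or 3, or hac1-2 replicate 1 or 3, it was not called. The medians of the 5 were 0.14 in hac1-1 and 0.17 in hac1-2, beside 0.02 for all tested genes.

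Brassinosteroids promote cell expansion through the transcription factors BZR1, BES1 and their relatives, and the bHLH factor HBI1 is known to activate expansin genes downstream of them. Of 17 genes on this list 12 were tested, with 3 lower in hac1-1, 1 lower in hac1-2 and none higher in either. Over all tested genes, 9.12% and 7.44% were called lower. Median log2 fold changes of the 12 were -0.29 and -0.18, beside 0.02 for all tested genes. HBI1 stood at 147 ± 9.63 CPM in WT (SD, n = 3), at 106, 75.0 and 90.0 CPM in hac1-1 and at 131, 146 and 140 CPM in hac1-2. All hac1-1 libraries lay below all others, and hac1-2 overlapped WT. HBI1 fell by 0.70 on the log2 scale in hac1-1 (edgeR adjusted p = 0.000146), was not called in hac1-2 (-0.08, edgeR adjusted p = 0.76) and was 0.62 higher in hac1-2 than in hac1-1 (edgeR adjusted p = 0.00391). Both HBI1 calls were kept in all 18 alternatives.

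BES1 fell by 0.37 in hac1-1 (edgeR adjusted p = 0.0328), from 145 ± 7.58 to 112 ± 5.26 CPM, a call lost in 10 of 18 alternatives: without any 1 of the WT or hac1-1 libraries, with library size only (edgeR adjusted p = 0.0623) and with limma on FPKM (adjusted p of 0.0856 to 0.0885). In hac1-2 its log2 fold change was -0.25 (edgeR adjusted p = 0.195). BEH3, a relative of BES1, fell by 1.42 in hac1-1 (edgeR adjusted p = 0.0399) and by 1.37 in hac1-2 (edgeR adjusted p = 0.0468), from a low 4.38 ± 0.782 CPM in WT. Its call was lost in hac1-1 without any 1 of the WT libraries or without hac1-1 replicate 1 or 2, and in hac1-2 without any 1 of the WT or hac1-2 libraries. It was also lost in both with limma on log2(FPKM + 0.1) (adjusted p = 0.0529 and 0.0616), and in hac1-2 with library size only (edgeR adjusted p = 0.0592).

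On the list of auxin transport and response, 10 of 16 genes were tested, none was called in hac1-1 and 1 was lower in hac1-2, beside 7.44% of all tested genes. This was the auxin response factor gene ARF19 (-0.50, edgeR adjusted p = 0.0329), whose value in hac1-1 was -0.40 (edgeR adjusted p = 0.0911). The ARF19 call in hac1-2 was lost without WT replicate 1 or 3 or hac1-2 replicate 2 or 3, with library size only (edgeR adjusted p = 0.0731) and with limma on FPKM (adjusted p of 0.223 to 0.231). In hac1-1 it was called without WT replicate 2 and with no filter (edgeR adjusted p = 0.0291). Among regulators of leaf growth, 8 of 15 genes were tested and 1 was called, lower in hac1-1 (9.12% of all tested genes): the growth-regulating factor gene GRF3 (-0.81, edgeR adjusted p = 0.0178), at -0.56 in hac1-2 (edgeR adjusted p = 0.124). That call was lost without WT replicate 1 or 3 or hac1-1 replicate 2 and with limma on FPKM (adjusted p of 0.0868 to 0.0908), and GRF3 was called in hac1-2 without WT replicate 2 or hac1-2 replicate 3. Median log2 fold changes against WT of these lists lay between -0.26 and 0.07, beside 0.02 for all tested genes.

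Cell type markers moved with the groups in part, and their part in the expansin values was not tested. The 7 guard cell markers, all of them detected, summed to 58.0 to 65.4 CPM in WT, 44.3 to 52.6 CPM in hac1-1 and 38.9 to 42.4 CPM in hac1-2. None was called in hac1-1, against 12.6% of all tested genes. FAMA and MYB60 were called lower in hac1-2 (7.44% of all tested genes). Epidermis markers (6 genes) summed to 407 to 426 CPM in WT, 446 to 494 in hac1-1 and 454 to 517 in hac1-2. In each mutant 1 was called higher (3.51% of all tested genes in hac1-1 and 2.85% in hac1-2). Phloem markers (4 genes) summed to 171 to 183 CPM in WT, 119 to 133 in hac1-1 and 120 to 140 in hac1-2. In each mutant 1 was called lower (9.12% of all tested genes in hac1-1 and 7.44% in hac1-2). Xylem markers (6 genes) lay at 0.52 to 1.2 CPM in WT, 1.53 to 2.26 in hac1-1 and 1.79 to 4.34 in hac1-2, too low to be tested.

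Mesophyll markers (4 photosynthesis genes) summed to 6640 to 7350 CPM in WT, 6310 to 7820 in hac1-1 and 9350 to 9570 in hac1-2. Most of each sum was LHCB1.3 (means of 5360, 5600 and 7660 CPM). Against WT, RBCS1A (log2 -0.45) and CA1 (-1.12) were called lower in hac1-1, and in hac1-2 LHCB1.3 was called higher (0.52) and CA1 lower (-0.72). Over all tested genes, 9.12% were called lower in hac1-1, and 2.85% higher and 7.44% lower in hac1-2. Between the mutants, 3 of the 4 mesophyll markers were called higher in hac1-2 than in hac1-1 (1.86% of all tested genes). EXPA1 and EXLA1 were called higher in that comparison too, and a link to the markers was not tested. Markers of dividing cells (5 genes) summed to 6.24 to 9.75 CPM in WT, 7.79 to 10.9 in hac1-1 and 6.88 to 10.4 in hac1-2, with CYCB1;1 at 0 throughout. Most of each sum was the histone gene HIS4 (means of 7.91, 9.27 and 8.42 CPM), and the others had too few counts to be tested. All 5 root and root hair markers were at 0 in every library, as were STM, WUS, KNAT1 and AP1 among the 5 meristem and flower markers. Of the mesophyll markers, LHCB1.3, LHCA1 and RBCS1A stood far above the median tested gene (15.7 CPM), while mean CA1 was 25.6 CPM for WT, 11.7 CPM for hac1-1 and 15.6 CPM for hac1-2.

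The gene of the 10 with the highest mean FPKM over all libraries was EXPA11, at 7.26. Among the 12838 tested genes whose mean reached 5 CPM, the pattern over the 9 libraries most like it was that of the non-coding RNA gene AT1G67365, with a root mean square difference of 0.164 in centred log2 CPM. PPCK1, which encodes a phosphoenolpyruvate carboxylase kinase, followed at 0.185 and the aquaporin gene PIP1;5 at 0.201. Mean CPM of PPCK1 was 70.7 in WT, 87.4 in hac1-1 and 119 in hac1-2, and that of PIP1;5 was 18.6, 20.8 and 33.5. The order of groups is that of EXPA11, which follows from choosing these genes by their likeness to it in the same libraries.

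**Figure D4:**
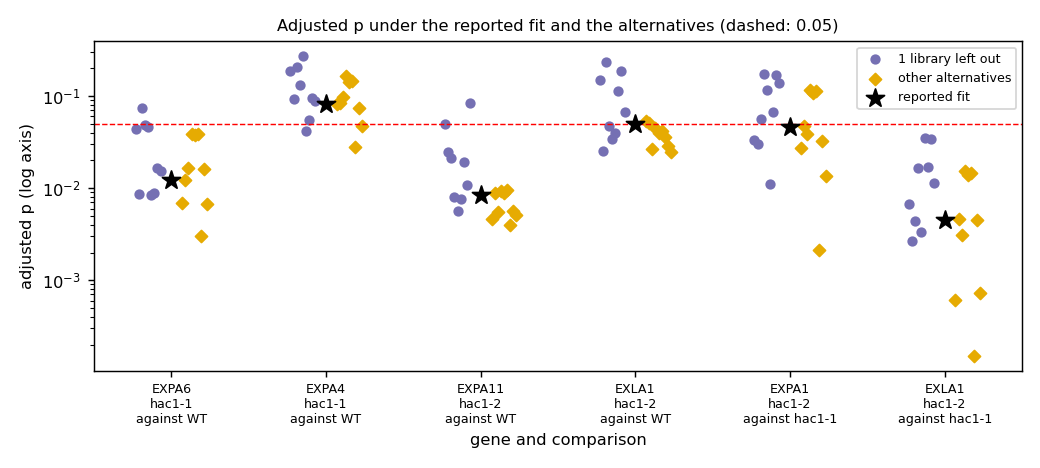
Adjusted p (y axis, log scale, dashed line at 0.05) of 6 gene and comparison pairs (x axis) in the reported edgeR fit (star), with 1 library left out (circles) and under the other alternatives (diamonds). Only EXLA1 between the mutants stays under the line in every setting, while EXPA6 and EXPA11 cross it in 1 setting each.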

How the data were processed

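Libraries were prepared from total RNA with the BrAD-seq protocol (breath adapter directional sequencing), per the labels' protocols. Raw read counts of 33323 genes were deposited by the authors, with FPKM values for 18168 genes, made on TAIR 10 per the submitters' processing notes. The aligner, counter, strand setting and annotation are not given in the sources used here. Each gene in the deposited FPKM table reached 1.0001 FPKM in some library, and FPKM equalled counts over library total and over a gene length that was whole, within 0.001 bases, in 100% of genes.

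Counts as deposited were tested by edgeR 4.0.16 under R 4.3.3, after its filterByExpr step (minimum count 10) and TMM scaling, by quasi-likelihood tests. A single fit over all 9 libraries (biological coefficient of variation 13.7%) gave the 3 comparisons, and genes were called at a Benjamini-Hochberg adjusted p under 0.05 over 16560 genes. CPM use TMM-scaled library sizes, and 95% intervals come from the SE and the t distribution. Symbols and coordinates come from the TAIR10.1 reference, which held 32835 of the gene identifiers. Promoters were read from its genome. Copies were searched with BLAST 2.17.0, and figures drawn with matplotlib 3.10.9. The code was tested on simulated data.

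The members and lists (proton pumps, cellulose synthases, brassinosteroid, auxin and leaf growth regulators, and markers of 8 cell types) were chosen with earlier results of these data known. Named were all members, every other tested family gene, up to 4 called genes per list by smallest adjusted p, HAC1, and the 3 genes most like the member highest in FPKM. The lists hold 2 symbols with no matching locus, which were left out. Alternatives were DESeq2 1.42.0 (Wald test, or its size factors in edgeR), library size only, no filter, only the groups compared, a replicate block, each library left out, and limma 3.58.1 on log2(FPKM + 1) or log2(FPKM + 0.1) for genes whose mean FPKM reached 1, or with no filter.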

Additional observations from a re-analysis of the deposited data

Results flagged for a closer look

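At 4 of the named genes the effect against WT differed between hac1-1 and hac1-2. The test was that of hac1-2 against hac1-1, in which WT cancels, and 2.84% of all tested genes were called in it. Genes from the lists had been named for a call against WT, and HAC1 is the mutated gene, so 4 is no neutral tally. HAC1 itself differed by 1.05 on the log2 scale (edgeR adjusted p = 3.33e-06), with 65.1 ± 7.11 CPM in hac1-1 and 135 ± 14.5 CPM in hac1-2 (SD, n = 3). EXPA1 differed by 1.38 on the log2 scale (edgeR adjusted p = 0.0464), with 3.23 ± 2.01 CPM in hac1-1 and 8.19 ± 1.11 CPM in hac1-2. This call was lost in 9 of 18 alternatives, and EXPA1 was called against WT in neither mutant. The expansin-like gene EXLA1 differed by 1.03 (edgeR adjusted p = 0.0045), with 9.75 ± 1.87 and 19.9 ± 1.96 CPM. HBI1, the bHLH factor known to activate expansin genes, differed by 0.62 (edgeR adjusted p = 0.00391), with 90.5 ± 15.7 and 139 ± 7.66 CPM. Every hac1-2 library lay above every hac1-1 library for all 4 genes. They were picked by their calls in this same comparison, so the lack of overlap is no added support. Groups did not overlap for 18.2% of all tested genes in either direction. Groups of 3 libraries were not searched for single outlying values.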

How the results depend on the processing

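Each call was recomputed under 18 alternatives. Of the 10 genes, 4 of which were tested in the reported fit, the number called in hac1-1 was 1 in that fit. It was 2 with no filter, 2 with a replicate block, and 0 to 3 with 1 library left out. In hac1-2 it was 1, and 0 to 1 with 1 library left out. Between the mutants it was 1, 0 with limma on FPKM under each of its 3 settings, and 0 to 1 with 1 library left out. Over all genes, calls in hac1-1 numbered 2092, and 2371 with no filter, 2511 with a replicate block, and 1560 to 2042 with 1 library left out. Those in hac1-2 numbered 1704, and 1911 with no filter, 2054 with a replicate block, and 1203 to 1974 with 1 library left out. Over all genes, calls between the mutants numbered 470, and 260 with limma on log2(FPKM + 1), 251 on log2(FPKM + 0.1), 252 with limma and no filter, 721 with edgeR and no filter, and 204 to 548 with 1 library left out, lowest without hac1-2 replicate 3. Without hac1-1 replicate 3 there were 240 and without hac1-2 replicate 2 there were 249. No log2 fold change of the 4 tested genes changed sign. That of EXLB1 in hac1-1, -0.02, became 0.01 with DESeq2, 0.02 with library size only, and -0.58 to 0.63 with 1 library left out (0.63 without WT replicate 1 and 0.52 without hac1-1 replicate 1).

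Replicate numbers were not taken as pairs: deviations of same-numbered libraries correlated at 0.013 to 0.179, although each library's highest correlation was with a library of its own number, a hint from the data and not from the design. With the replicate block, calls between the mutants numbered 715, and EXPA4 was called in hac1-1 (-1.10, edgeR adjusted p = 0.0477), as was ARF19 (-0.41, edgeR adjusted p = 0.0235). The cause of these moves was not tested.

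With CPM per kilobase of reference exon in place of FPKM, EXPA4 and EXPA11 exchanged places in WT (4.48 and 4.32), as did EXPA5 and EXPA3. The deposited FPKM imply gene lengths with a median of 0.902 of the reference exon length. At 0.318 to 0.52 CPM for 3 counts, depth limits what can be said of the 6 untested genes.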
